A study of Homo sapiens with 6 samples.

Results

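The human mitochondrial ribosomal protein genes were taken as all genes whose symbol is MRPL or MRPS followed by a number and, in some, a letter from A to C. This rule used names alone and no measured value. It found 78 of the 58735 genes in the deposited count table, and 77 of these 78 had enough counts to be tested, among 14960 genes tested in all. The proteins of 51 members belong to the large subunit, including MRPS30 and MRPS18A, which carry small-subunit names but stand in the large subunit of the solved ribosome. Another 26 belong to the small subunit, and MRPS36 is a member by name alone, since its protein is now known as part of the 2-oxoglutarate dehydrogenase complex.

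RNA was sequenced from 6 cultures of Panc-1, an established line of epithelial cells derived from a human pancreatic carcinoma, with wild-type genotype per the labels. For 72 h the cells of 3 libraries shared a culture with cancer-associated fibroblasts (CAF), and those of 3 further libraries with CAF that overexpressed PAI-1, an inhibitor of plasminogen activators. These are called CAF libraries and PAI-1 libraries here. The table heads the control columns CAF-NC, and what NC stands for, how PAI-1 was overexpressed, where the CAF came from and how they were kept apart from Panc-1 are not given in the sources used here. Panc-1 is 1 line, and the labels call the replicates biological without saying whether cultures were set up separately. The p-values therefore rest on the spread among the libraries at hand, which may be technical.

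Mitochondria have ribosomes of their own, which make only the few proteins encoded in mitochondrial DNA, all of them parts of the respiratory chain and the ATP synthase. Their rRNAs come from mitochondrial DNA, while every one of their proteins is encoded in the nucleus, made by cytosolic ribosomes and imported. Many of these proteins descend from bacterial ribosomal proteins, and others were gained by the mitochondrial lineage. Pancreatic cancer cells are known for their use of mitochondrial respiration in some states, and mitochondrial translation supplies the core subunits of that machinery.

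Promoters of these genes are known for sites of a few broadly expressed factors, so the sequences around their starts are given first. RefSeq windows on GRCh38.p14, from 250 bases before to 50 bases after a start, were at hand for 69 of the 78 members (85 windows), 35116 windows of all genes, and 15156 windows of genes tested. Each motif was searched on both strands, and overlaps between motifs were allowed. The letters CCGGAAG, which ETS factors such as GABPA bind, stood in 38.8% of the members' windows, against 16.6% of the windows of tested genes and 10.3% of all windows. The YY1 motif, whose 10 letters are those in capitals in the first lines below, stood in 15.3% of members' windows, against 2.35% and 1.2%. The NRF1 motif, also shown in capitals below, stood in 11.8% against 9.77% and 5.78%, and the E-box CACGTG in 10.6% against 9.32% and 7.26%. These shares describe letters in a window and not binding.

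The windows of members that rose or fell in the comparison described further on are shown to place the motifs, 5′ to 3′ on the strand of the gene, with the motif in capitals and 10 bases on each side. The YY1 letters stand over the start codon in MRPS30 and MRPL46, and before the start of transcription in MRPL32 and MRPL52.
MRPS30, chr5:44808950-44808979, plus strand: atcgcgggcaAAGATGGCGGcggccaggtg
MRPL46, chr15:88467361-88467390, minus strand: gggagaacgaAAGATGGCGGcgcccgtaag
MRPL32, chr7:42932142-42932171, plus strand: tacccgcgctCCGCCATCTTtacccgaaga
MRPL52, chr14:22829779-22829808, plus strand: acgatgacccAAGATGGCGGagccgtgatt
The ETS letters are shown for 4 of the 8 members that rose and hold them and for MRPL53, which fell.
MRPS12, chr19:38930929-38930955, plus strand: cggatagcgcCCGGAAGaggctagaag
MRPS23, chr17:57850042-57850068, minus strand: ggagcagccgCTTCCGGttccggtagc
MRPL3, chr3:131502987-131503013, minus strand: gtaaaacgcaCCGGAAGtgggtccggc
MRPL58, chr17:75012467-75012493, plus strand: tcggggcactCTTCCGGtagcagctcg
MRPL53, chr2:74472736-74472762, minus strand: cagccggcggCCGGAAGtctatcccgc
The NRF1 letters are shown for the 3 members that rose and hold them.
MRPL14, chr6:44127412-44127441, minus strand: tgggcctggcGCGCAGGCGCtaggaagagg
MRPL17, chr11:6683402-6683431, minus strand: aggctctgatGCGCATGCGCaaacacgttc
MRPL30, chr2:99181058-99181087, plus strand: tgatacccagGCGCCTGCGCtctctttcta

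The YY1 letters contain ATG. They were present in 13 member genes, lay after the start of transcription in 10 of them, and in 9 of those the ATG was the annotated start codon. With the window ended at the start of transcription, 3.53% of member windows held them, against 0.587% of the windows of tested genes, and the ETS letters stood in 31.8% against 13.8%. The ETS letters stood in 8 of 18 members that rose and had a window (44.4%) and in 21 of 49 that were not called (42.9%). For YY1 the counts were 4 of 18 (22.2%) and 8 of 49 (16.3%), for NRF1 3 of 18 and 6 of 49, and for the E-box 2 of 18 and 7 of 49. No difference between these shares was tested.

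All libraries held between 13628508 and 16006880 counts. Of 9 fibroblast markers, 8 lay under 1 CPM in every library (marker levels are counts scaled by library size alone), the exception being COL3A1 at 4.37 to 6.86 CPM, and their summed level was 5.06 to 6.84 CPM in CAF and 5.58 to 7.58 CPM in PAI-1 libraries. The 6 epithelial markers were all present, with KRT8 at 1020 to 1180 CPM, but EPCAM only at 6.49 to 9.22 CPM and CDH1 at 0.721 to 1.91 CPM. Of these 6, the keratins KRT7, KRT8, KRT18 and KRT19 rose, and the summed level of the list was 1830 to 1920 CPM in CAF and 1980 to 2270 CPM in PAI-1 libraries, without overlap. Its part in the results below was not tested. All 4 squamous, 3 immune and 2 endothelial markers lay under 1 CPM. The squamous set was looked at because the extraction text names Cal27, a squamous line, and treatment with Stattic or DMSO, contrary to all other labels.

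Of the 77 members tested, 20 rose (26.0%), 2 fell (2.6%) and 55 were not called at an adjusted p under 0.05, where 17.2% of all genes tested rose, 15.0% fell and 32.2% were called in either direction. The sizes were modest: the log2 fold changes of the 20 that rose ran from 0.18 to 0.47 with a median of 0.30, and the largest fold was 1.39. Over all 77 tested members the median log2 fold change was 0.12 (quartiles 0.0043 and 0.23, range −0.74 to 0.47), against −0.0015 over all genes tested. A positive value was found for 59 members and a negative one for 18, while 49.8% of all genes tested were positive and 50.2% negative. In 26 members all PAI-1 libraries lay above all CAF libraries and in 2 all lay below, where 22.3% and 21.0% of all genes did so (43.3% in either direction). The 55 members not called ran from −0.31 to 0.29, and 39 of them were positive. In bulk RNA, a change in the share of cells that express a gene and a change in RNA per cell cannot be told apart.

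**Figure D1:**
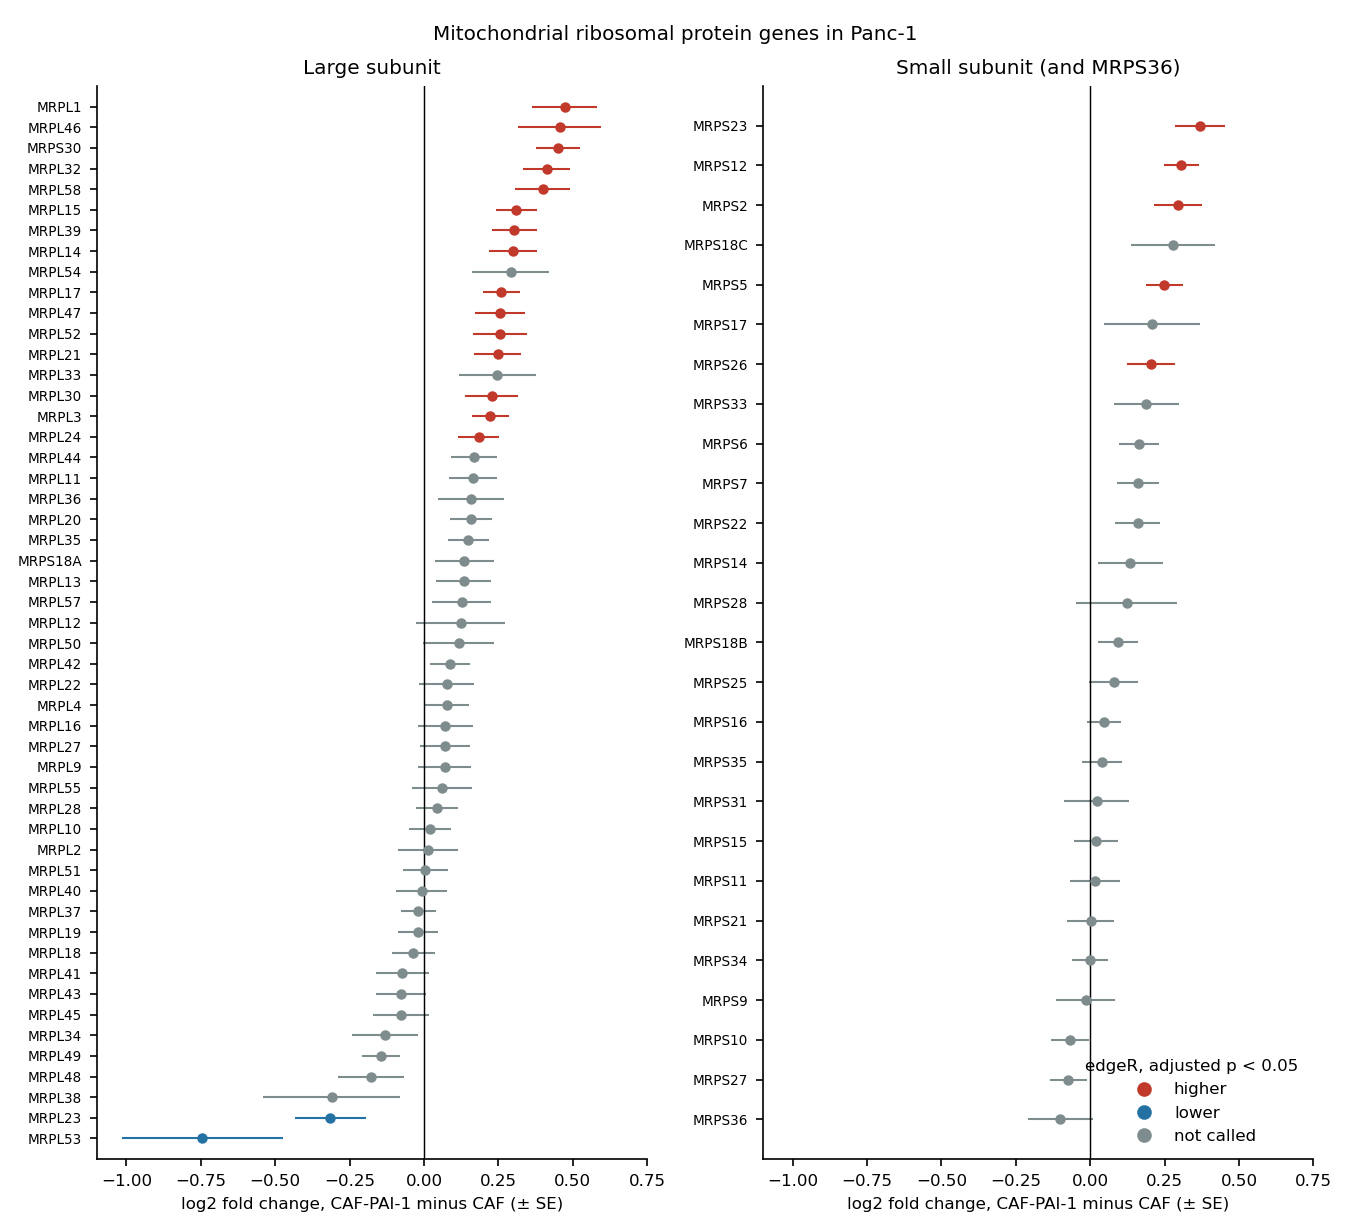
Log2 fold change (PAI-1 libraries minus CAF libraries) of each of the 77 tested members with its SE, sorted by size, for the large subunit on the left and the small subunit with MRPS36 on the right. Red points rose, blue points fell and grey points were not called; 59 points lie right of 0, and the 2 that fell are both in the large subunit.

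From here on, CPM are scaled with the TMM factors of edgeR unless library size alone is named. Summed over the 78 members, the CAF libraries held 3385, 3582 and 3440 CPM and the PAI-1 libraries 3655, 3934 and 3700 CPM. All 3 PAI-1 libraries lay above all 3 CAF libraries, and PAI-1 replicate 2 was the highest. The means were 3469 ± 102 and 3763 ± 150 CPM (SD, n = 3), a ratio of 1.08. Both subunits gave a ratio of 1.09, with means of 2003 ± 69.2 and 2175 ± 78.5 CPM for the large and 1448 ± 32.5 and 1572 ± 70.6 CPM for the small subunit (SD, n = 3).

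The size of the shift rested in part on 1 library, and its distance from 0 also on the scaling. Relative to the CAF mean, the median log2 level of the members was −0.029, 0.053 and −0.017 in the CAF libraries and 0.087, 0.17 and 0.096 in the PAI-1 libraries. PAI-1 replicate 2 stood highest, with 65 of 77 members above the CAF mean, against 49 and 55 in the other PAI-1 libraries. In the CAF libraries 27, 57 and 35 members lay above the CAF mean, so these counts overlapped between the groups. Without PAI-1 replicate 2, 14 members rose (15.8% of all genes tested did so), 1 fell (14.4% of all genes) and the median was 0.061. The same library had the lowest share of its counts on mitochondrially encoded genes, 3.779%, against 5.122% and 4.76% in the other PAI-1 libraries and 5.528% to 5.918% in CAF libraries, and the part of this in the result was not tested. With library size alone as scaling, 14 members rose and 3 fell, where 12.3% of all genes rose and 21.3% fell. The medians of members and of all genes were 0.057 and −0.068, a difference of 0.1248 (0.1241 with TMM). The ratio of the summed levels was then 1.04, and the CAF (3492, 3641 and 3516 CPM) and PAI-1 libraries (3546, 3877 and 3610 CPM) overlapped.

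**Figure D2:**
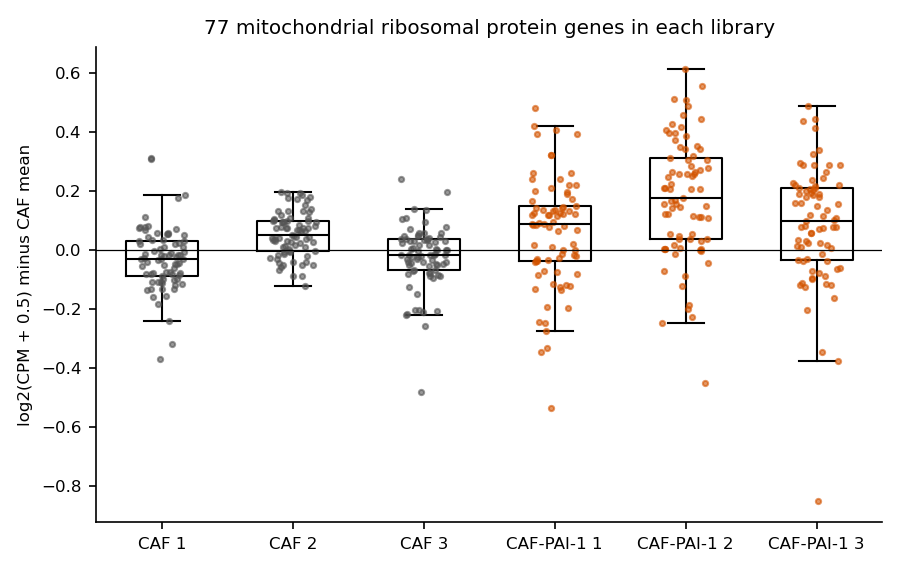
Level of the 77 tested members in each library as log2(CPM + 0.5) minus the mean of the CAF libraries; each point is 1 member, boxes show quartiles and median, and whiskers reach the last point within 1.5 times the box length. The medians of the PAI-1 libraries (0.087, 0.17 and 0.096) lie above those of the CAF libraries (−0.029, 0.053 and −0.017), with PAI-1 replicate 2 the highest.

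The large-subunit genes held 15 of the 20 members that rose and both that fell. That is 15 of 51, with a median log2 fold change of 0.12, and in the small subunit 5 of 25 tested rose and 0 fell, also with a median of 0.12. Over all genes tested 17.2% rose and 15.0% fell, and the share higher in the small subunit lay close to the first of these. The 0 small-subunit members lower stayed at 0 in each of the 15 alternative fits, which include DESeq2 and limma-voom. Of the 45 tested proteins listed with a bacterial counterpart 13 rose (28.9%, against 17.2% of all genes) and 1 fell (median 0.14). Of the 31 listed as specific to mitochondria 7 rose (22.6%, against 17.2% of all genes) and 1 fell (median 0.086). This second class holds MRPS18A and MRPS18B, although their family derives from a bacterial protein. Within the large subunit the counts were 10 of 30 and 5 of 21, and within the small subunit 3 of 15 and 2 of 10. Without PAI-1 replicate 2, where 15.8% of all genes rose, 4 of the 31 mitochondria-specific members rose (12.9%, median 0.049), 3 of them in the large subunit, and 10 of the 45 with a bacterial counterpart (22.2%, median 0.084). The small-subunit median was then 0.056, with 4 higher. No difference between these classes was tested.

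MRPS30 had the smallest p of all members. It encodes a large-subunit protein without a bacterial counterpart, also known as a programmed cell death protein. The gene (ENSG00000112996) lies at chr5:44808925-44820428 of GRCh38, plus strand. It stood at 38.6, 37.7 and 40.5 CPM in the CAF libraries and at 54.5, 55.6 and 49.4 CPM in the PAI-1 libraries. The groups lay well apart, with means of 38.9 ± 1.43 and 53.2 ± 3.29 CPM (SD, n = 3; log2 fold change 0.45, SE 0.074, edgeR adjusted p = 1.26e-05).

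The other large-subunit members with the smallest p were MRPL32 (chr7:42932200-42948958, plus strand), MRPL15 and MRPL1 (chr4:77862520-77952790, plus strand). MRPL32, a protein cut to its mature form by the m-AAA protease of the inner membrane before it enters the ribosome, stood at 30.0, 34.1 and 33.1 CPM in CAF and 40.6, 43.1 and 45.6 CPM in PAI-1 libraries. All PAI-1 libraries were higher (log2 fold change 0.41, SE 0.080, edgeR adjusted p = 0.000133). MRPL15, a conserved protein of the large-subunit core, stood at 59.4, 65.4 and 66.3 CPM and at 76.4, 85.2 and 75.5 CPM. The groups again did not overlap, and PAI-1 replicate 2 was the highest (log2 fold change 0.31, SE 0.069, edgeR adjusted p = 0.000594). MRPL1, the protein of the stalk at the exit site for tRNA, had the largest rise of all members, 1.39-fold. Its levels were 13.4, 15.0 and 15.9 CPM in CAF and 19.7, 21.9 and 19.8 CPM in PAI-1 libraries (log2 fold change 0.47, SE 0.11, edgeR adjusted p = 0.000833), so that the lowest PAI-1 library stood above the highest CAF library.

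In the small subunit the smallest p belonged to MRPS12 (chr19:38930548-38933162, plus strand) and MRPS23 (chr17:57834781-57850056, minus strand). MRPS12, a protein of the decoding centre known for streptomycin resistance mutations in its bacterial counterpart, stood at 209, 222 and 215 CPM in CAF and 251, 293 and 254 CPM in PAI-1 libraries. The means were 215 ± 6.53 and 266 ± 23.5 CPM (SD, n = 3; log2 fold change 0.31, SE 0.059, edgeR adjusted p = 0.000102), with PAI-1 replicate 2 well above the others. MRPS23, a protein specific to the mitochondrial ribosome, stood at 28.7, 30.1 and 28.3 CPM and at 33.9, 39.2 and 39.5 CPM. No library of one group reached the other (log2 fold change 0.37, SE 0.084, edgeR adjusted p = 0.000824).

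**Figure D3:**
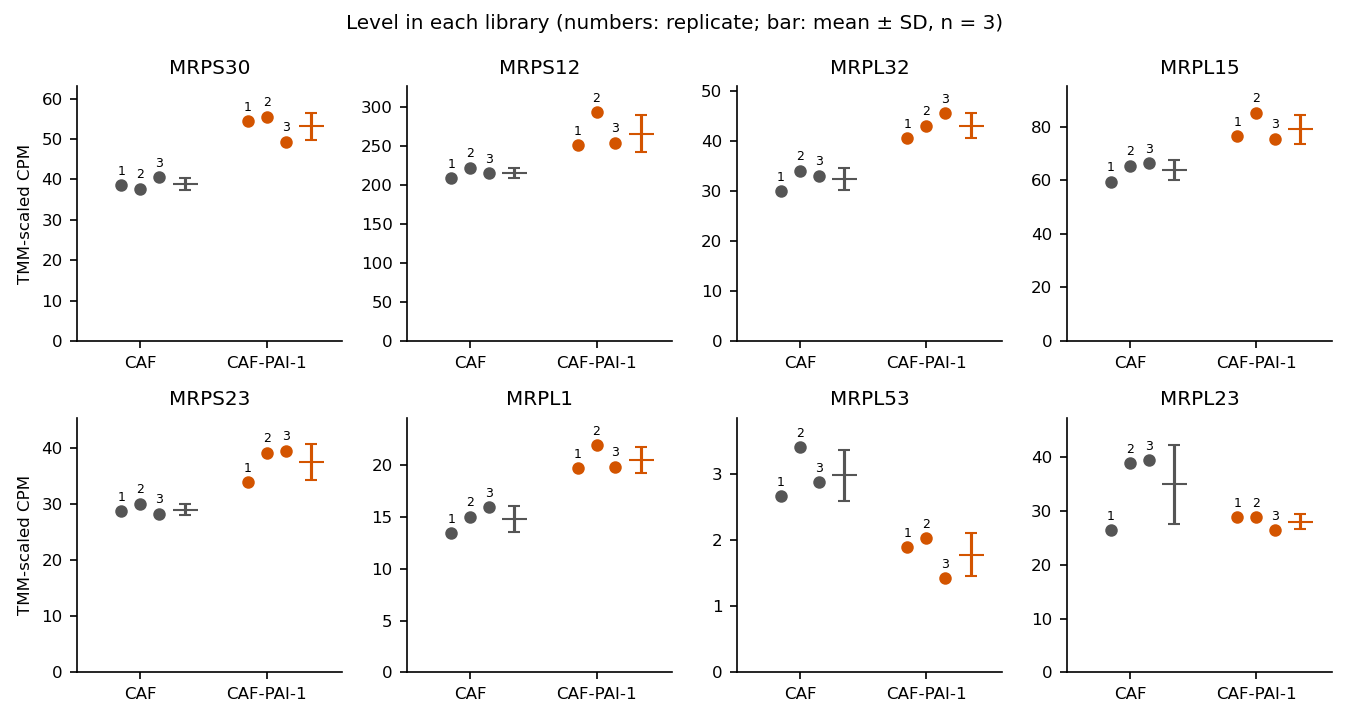
TMM-scaled CPM in each library of the 6 members with the smallest p that rose and of the 2 that fell; numbers beside the points are replicate numbers, and bars show mean ± SD (n = 3), with each axis starting at 0. The groups do not overlap except in MRPL23, where CAF replicate 1 (26.5 CPM) lies with the PAI-1 libraries.

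Other large-subunit members that rose, given by log2 fold change, were MRPL58 (0.40), a peptidyl-tRNA hydrolase built into the ribosome, MRPL17 (0.26) and MRPL39 (0.30). MRPL3 (0.22), a conserved protein near the peptidyl transferase centre, and MRPL14 (0.30), the protein to which the assembly factor MALSU1 binds, also rose. The last of this group were MRPL46 (0.46), MRPL21 (0.25), MRPL47 (0.26), MRPL52 (0.25), MRPL24 (0.18) and MRPL30 (0.23). In the small subunit MRPS5 (0.25) and MRPS2 (0.29), both with bacterial counterparts, and MRPS26 (0.21), without one, rose as well. The calls of 12 members held in all 15 alternative fits: MRPS30, MRPS12, MRPL32, MRPL15, MRPS23, MRPL1, MRPL58, MRPL17, MRPL39, MRPS5, MRPS2 and MRPL3. MRPS26 kept its call in only 3 of the 15, MRPL30 in 5, MRPL24 in 8, MRPL52 in 10, MRPL47 in 11, MRPL21 in 12, and MRPL14 and MRPL46 in 14 each.

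Only MRPL53 (chr2:74471958-74473322, minus strand) and MRPL23 (chr11:1947278-1984522, plus strand) fell, and neither call held in all alternatives. MRPL53, a mitochondria-specific protein, was near the lower end of the members, with 44, 54 and 40 counts in CAF and 28, 28 and 22 counts in PAI-1 libraries. In CPM this was 2.66, 3.40 and 2.87 against 1.89, 2.03 and 1.42, without overlap (log2 fold change −0.74, SE 0.27, edgeR adjusted p = 0.03). On the same strand, 52.3% of its principal transcript is also exon of CCDC142, which fell by 0.37 on the log2 scale (adjusted p = 0.0258), and the sources used here do not give how shared reads were assigned. MRPL23, a protein next to the exit tunnel of the large subunit, stood at 26.5, 38.9 and 39.5 CPM in CAF and at 28.9, 28.9 and 26.4 CPM in PAI-1 libraries. The groups overlapped because CAF replicate 1 was as low as the PAI-1 libraries (log2 fold change −0.31, SE 0.12, edgeR adjusted p = 0.0483). MRPL53 kept its call in 10 of 15 alternatives and MRPL23 in 8. MRPS36, the member by name alone, had a log2 fold change of −0.10 (SE 0.11, edgeR adjusted p = 0.519), and its libraries stood at 16.4, 19.1 and 18.2 CPM in CAF and at 16.2, 17.9 and 15.9 CPM in PAI-1, with overlap.

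The 3 human proteins of the MRPS18 family, which derive from 1 bacterial protein and take different places in the ribosome, did not pass the test. In the split by origin above, only MRPS18C was listed with a bacterial counterpart. MRPS18A, in the large subunit, stood at 17.7, 19.7 and 17.6 CPM in CAF and 20.1, 21.2 and 19.3 CPM in PAI-1 libraries (log2 fold change 0.14, SE 0.10, edgeR adjusted p = 0.331). MRPS18B stood at 72.1, 76.5 and 70.4 CPM and at 77.8, 82.4 and 73.8 CPM (0.094, SE 0.066, edgeR adjusted p = 0.294), and here too the groups overlapped. MRPS18C stood at 14.4, 11.1 and 9.55 CPM and at 13.7, 16.0 and 13.1 CPM (0.28, SE 0.14, edgeR adjusted p = 0.116). On the opposite strand, RSPH9 shares 56.9% of the principal transcript of MRPS18A, and ABRAXAS1 78.9% of that of MRPS18C.

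Genes of the stalk on which translation factors land, MRPL10, MRPL11 and MRPL12, were not called. MRPL10, its base, stood at 47.4, 51.9 and 46.1 CPM in CAF and 48.7, 48.5 and 50.4 CPM in PAI-1 libraries (log2 fold change 0.020, SE 0.072, edgeR adjusted p = 0.862), so the groups covered the same range. MRPL11 stood at 59.5, 66.3 and 55.1 CPM and at 66.8, 76.7 and 59.6 CPM (0.16, SE 0.081, edgeR adjusted p = 0.129). MRPL12, which forms the flexible part of the stalk, stood at 22.9, 26.1 and 19.7 CPM and at 22.4, 32.1 and 20.8 CPM (0.12, SE 0.15, edgeR adjusted p = 0.568), and its PAI-1 replicate 2 was the only value above 30 CPM.

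Levels were compared between members per length, as mean CPM over 6 libraries per kilobase of the longest principal transcript. The highest were MRPS12 at 197 and MRPS6 at 107 CPM per kb in the small subunit, and MRPL20 at 106 and MRPL37 at 79.4 CPM per kb in the large subunit. Of these, MRPS12 alone rose. MRPS6 stood at 89.2, 109 and 101 CPM in CAF and 104, 120.0 and 111 CPM in PAI-1 libraries (log2 fold change 0.16, SE 0.068, edgeR adjusted p = 0.0648). On the same strand, 31.9% of its principal transcript is also exon of other genes. Among these is SLC5A3, which fell by 0.55 on the log2 scale (edgeR adjusted p = 6.92e-09). MRPL20, a protein of early large-subunit assembly in bacteria, stood at 72.4, 71.9 and 73.4 CPM and at 71.2, 87.3 and 84.4 CPM (0.16, SE 0.070, edgeR adjusted p = 0.0819), with PAI-1 replicate 1 at the level of the CAF libraries. MRPL37, a mitochondria-specific protein, stood at 114, 124 and 117 CPM and at 115, 117 and 119 CPM (−0.019, SE 0.058, edgeR adjusted p = 0.838). The order between MRPS6 and MRPL20 rests on the transcript chosen for length, and the very long principal transcripts of MRPL42 (15582 bases) and MRPS23 (5621 bases) lower their values per length.

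The lowest levels per length were MRPS24 at 0.536 CPM per kb in the small subunit and MRPL38 at 1.94 CPM per kb in the large subunit. MRPS24 had 5, 4 and 4 counts in CAF and 4, 8 and 9 counts in PAI-1 libraries and did not pass the filter on low counts. On the same strand 85.7% of its principal transcript is also exon of the readthrough gene URGCP-MRPS24, which held 1 count in all. MRPL38 stood at 4.97, 4.46 and 2.66 CPM in CAF and 2.97, 3.92 and 2.97 CPM in PAI-1 libraries (log2 fold change −0.31, SE 0.23, edgeR adjusted p = 0.327), with overlap between groups. Same-strand sharing of over 25% of the principal transcript was found for 8 members (MRPL12, MRPL38, MRPL46, MRPL53, MRPS6, MRPS17, MRPS24 and MRPS28). Their median level was 5.71 CPM per kb, against 27.9 for the other 70, and 4 of the 5 lowest members were among them. The part that counting of shared reads has in these low values, or in the level and change of MRPS6, was not tested. Among the 37 members that share no exon sequence with any gene on either strand, 13 rose (35.1%, against 17.2% of all genes) and 0 fell (median log2 fold change 0.12). Among the 40 tested that share some, 7 rose (17.5%) and 2 fell (median 0.12). Without PAI-1 replicate 2 the counts were 8 of 37 higher (21.6%) and 6 of 40 higher (15.0%), where 15.8% of all genes rose.

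Many of these genes start back to back with another gene. Within 1000 bases, 21 members had a start on the other strand that points away from theirs, and in 19 of these pairs both genes were tested. In 0 pairs did both rise and in 0 did both fall. As only 17.2% of all genes tested rose and 15.0% fell, 19 pairs are too few to show whether such pairs move together. In 5 pairs the member rose and its neighbour was not called, in 9 neither was called, in 2 the neighbour alone rose and in 2 it alone fell. The remaining pair went in opposite directions: MRPL21 rose (0.25), while IGHMBP2, a helicase gene whose start lies 7 bases away, fell by 0.27 on the log2 scale (SE 0.089, edgeR adjusted p = 0.019). The tested but uncalled neighbours of members that rose were MITD1 (log2 fold change 0.14), MRPS11 (0.017), NDUFB5 (−0.17), SLC7A7 (0.47, SE 0.43) and MRPS30-DT (0.34, SE 0.39). Of these, SLC7A7 and MRPS30-DT had CAF means of only 0.737 and 0.859 CPM. MRPL46 and MRPS11, both members, start 34 bases apart and are counted once from each side. MRPL46 rose by 0.46, and MRPS11 stood at 29.6 ± 0.562 and 29.9 ± 1.71 CPM (SD, n = 3; log2 fold change 0.017, edgeR adjusted p = 0.904).

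Genes that build and run the mitochondrial ribosome were placed in lists. Beside them stand the shares over all genes tested, of which 17.2% rose and 15.0% fell. Among 5 mitoribosomal proteins outside the naming pattern, 1 rose: DAP3, a GTP-binding small-subunit protein (log2 fold change 0.24, adjusted p = 0.00186). CHCHD1 had 0.16 (adjusted p = 0.0915). Of 26 assembly factors, 7 rose (26.9%) and 1 fell (3.85%, median 0.067). FASTKD2, which binds the large-subunit rRNA, rose by 0.56 (adjusted p = 7.39e-07), and the rRNA methyltransferase MRM2 by 0.37 (adjusted p = 0.000116), while MPV17L2 fell by 0.43 (adjusted p = 0.00987). Over the 15 alternatives between 3 and 7 assembly factors rose and 0 to 2 fell. The count higher was 3 with library size alone (12.3% of all genes rose) and without CAF replicate 3 (14.1%). It was 4 with DESeq2 (15.0%) and without PAI-1 replicate 3 (14.5%). Without PAI-1 replicate 2 the median was 0.022.

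Of 15 mitochondrial translation factors, 2 rose (13.3%, against 17.2% of all genes) and 0 fell (15.0% of all genes did so), with a median of −0.032. These were the elongation factor GFM1 (log2 fold change 0.33, adjusted p = 0.000114) and the peptide deformylase PDF (0.51, adjusted p = 0.00275). Of 20 genes of mitochondrial tRNA charging, 3 rose (15.0%) and 1 fell (5.0%), with a median of −0.056. MARS2 stood at 0.70 (adjusted p = 5.81e-06) and YARS2 at 0.30 (adjusted p = 0.00352). Of 20 genes of mitochondrial transcription and RNA processing, 7 rose and 0 fell (median 0.11), led by TRMT10C, a subunit of mitochondrial RNase P (0.48, adjusted p = 1.57e-05), and GRSF1 of the RNA granules (0.35, adjusted p = 2.78e-05). That count ranged from 2 to 7 higher and 0 to 1 lower over the alternatives. It was 2 higher with library size alone (12.3% of all genes rose) and without CAF replicate 1 (14.0%). It was 3 or 4 higher with DESeq2 (15.0%) and with no filter beyond 1 count (8.35%). The same held without any 1 of CAF replicates 2 and 3 and PAI-1 replicates 1 and 3 (14.1% to 15.3%). The count of tRNA charging genes lower was 0 without CAF replicate 2 (12.2% of all genes fell) or PAI-1 replicate 2 (14.4%).

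The products and partners of the mitochondrial ribosome did not share one direction. Of 75 nuclear genes of the respiratory chain and ATP synthase, 1 rose (1.33%, against 17.2% of all genes) and 2 fell (2.67%, against 15.0%), with a median of 0.0064. NDUFB9 stood at 0.23 (adjusted p = 0.0113), with overlap between the groups, and NDUFA4 at −0.17 (adjusted p = 0.024), without overlap. With library size alone 14 of the 75 fell (18.7%, against 21.3% of all genes), and without PAI-1 replicate 2 it was 12 (16.0%, against 14.4% of all genes). Without CAF replicate 2 (12.2% of all genes fell), or without CAF replicate 3 (12.3%), 0 fell. Without PAI-1 replicate 1, 4 rose and 1 fell, where 15.3% of all genes rose and 13.7% fell. Without PAI-1 replicate 3, 1 fell (12.3% of all genes). Of the 13 mRNAs encoded in mitochondrial DNA, 0 rose and 3 fell (23.1%), and all 13 values were negative (median −0.35). MT-CO2 fell by 0.24 (adjusted p = 0.00146), without overlap between the groups, and MT-CO3 by 0.19 (adjusted p = 0.0117), with overlap. Without PAI-1 replicate 2 the median was −0.17 and 8 fell (61.5%, against 14.4% of all genes). The count lower was 9 without robust estimation (14.9% of all genes fell). It was 5 with library size alone (21.3%) and without PAI-1 replicate 1 (13.7%). It was 1 without CAF replicate 2 (12.2%), CAF replicate 3 (12.3%) or PAI-1 replicate 3 (12.3%). Neither mitochondrial rRNA was called (MT-RNR1 −0.032, adjusted p = 0.695; MT-RNR2 −0.0009, adjusted p = 0.993), and their counts come from libraries made with oligo-dT.

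The cytosolic ribosomal protein genes held more calls for their number than the members. Of 79, 50 rose (63.3%, against 17.2% of all genes) and 0 fell in edgeR. Their median log2 fold change was 0.18, against 0.12 over the members. With RLE scaling 48 rose (16.8% of all genes did so) and 0 fell. With library size alone 24 rose (12.3% of all genes) and 0 fell, and without CAF replicate 1 29 rose (14.0% of all genes). RPL36A had the smallest p (0.80, adjusted p = 1.9e-06). Of 27 genes of mitochondrial protein import, 16 rose (59.3%) and 0 fell (median 0.23), and with library size alone 11 rose and 0 fell. The import motor chaperone HSPA9 went from 543 ± 4.27 to 743 ± 15.0 CPM (SD, n = 3; log2 fold change 0.45, edgeR adjusted p = 1.46e-08), and its exchange factor GRPEL1 rose by 0.64 (adjusted p = 2.3e-08). The lists were not matched for level, on which the share called can depend. Among the members, 12 of the 38 with the higher mean CPM rose (31.6%) and 8 of the other 39 (20.5%). The median was 0.12 in both parts. The difference between these lists and the members, and the part of level in it, was not tested.

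**Figure D4:**
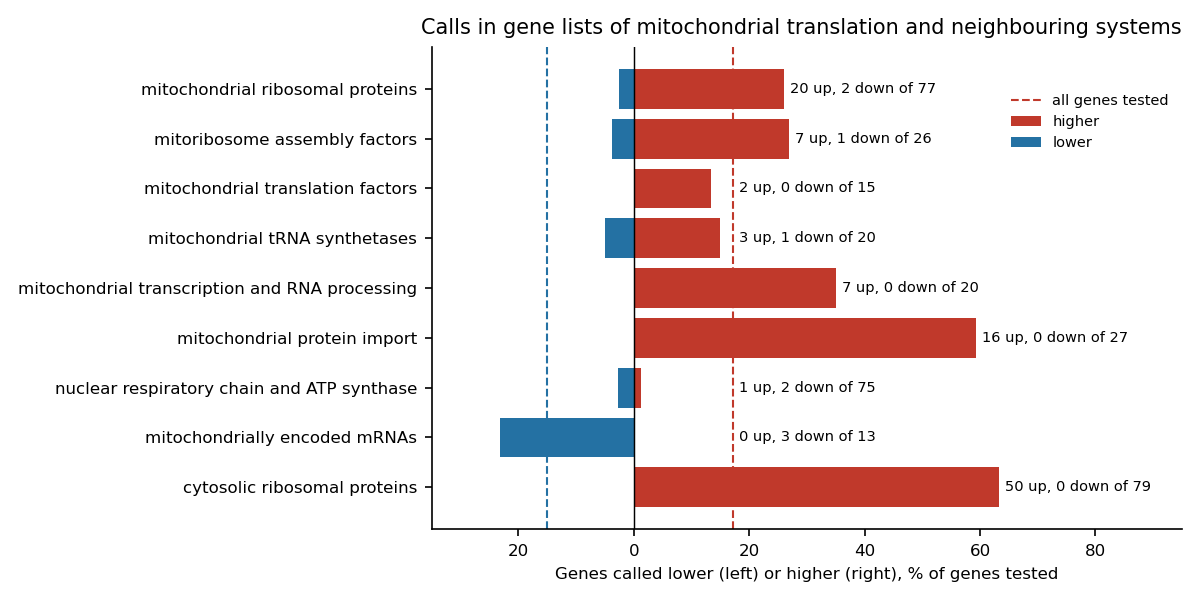
Share of tested genes called lower (left of 0) and higher (right of 0) in each list, in percent, with dashed lines at the shares over all genes tested (15.0% lower and 17.2% higher). Cytosolic ribosomal proteins (63.3% higher) and mitochondrial import (59.3%) reach farther than the mitochondrial ribosomal proteins (26.0%), and mitochondrially encoded mRNAs lie on the lower side alone. The lists were not matched for level.

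**Figure D5:**
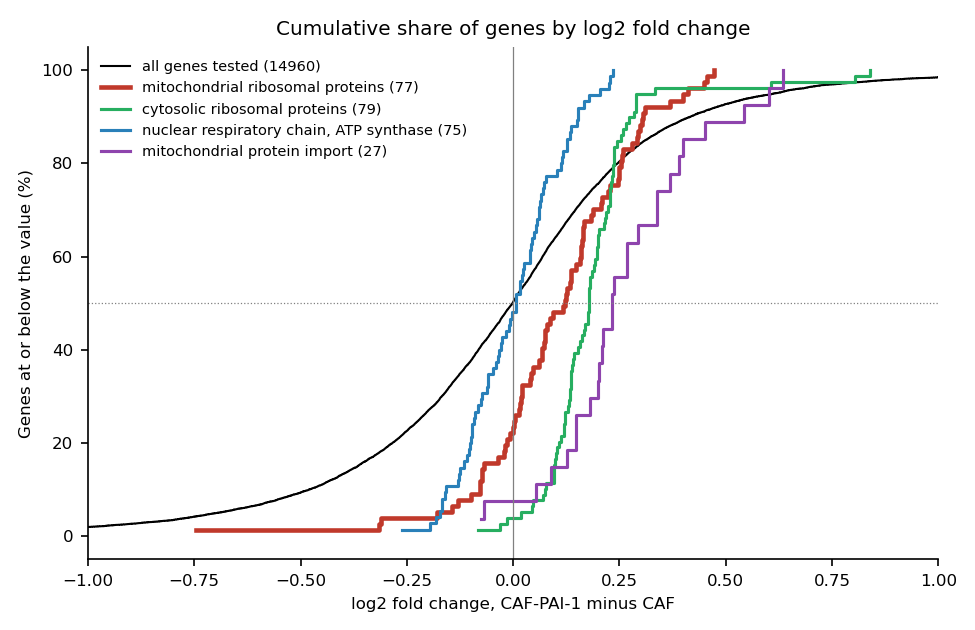
Cumulative share of genes (percent) by log2 fold change for all 14960 genes tested (black), the 77 members (red) and 3 lists; the axis ends at −1 and 1. The members cross the 50% line at 0.12, between the nuclear respiratory chain genes at 0.0064 and the cytosolic ribosomal proteins at 0.18.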

How the data were processed

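The authors deposited whole-number counts per gene for the 6 libraries. BWA, Bowtie2, RSEM and hg19 are named in the submitters' processing notes, without versions or roles, while the 58735 gene identifiers are those of GENCODE release 29 on GRCh38, whose coordinates are used here. The step that made whole counts, the use of strand and the handling of reads shared between genes are not given in the sources used here.

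Counts were tested with edgeR 4.0.16 (R 4.3.3): filterByExpr (minimum count 10, minimum total 15), TMM, robust glmQLFit and glmQLFTest, PAI-1 minus CAF, with no covariate. Benjamini-Hochberg adjustment ran over the 14960 genes tested, at 0.05, and each adjusted p printed is from this test unless another tool is named. SEs were derived from the log2 fold change and its F statistic. The common biological coefficient of variation was 6.06%, and 3 counts correspond to 0.187 to 0.22 CPM by library size alone. Scripts were tested on simulated data. DESeq2 1.42.0, limma-voom (limma 3.58.1), other scalings and filters, an offset for GC and length (5 spline terms each) and each library left out were the alternatives.

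The members, lists and motifs were chosen with earlier results of these data known. Named with values per library were up to 6 called members per direction with the smallest p, the 2 highest and 1 lowest per length in each subunit, the MRPS18 family and the stalk. Other called or untested members are named by log2 fold change, and in each list the 2 with the smallest p. CCDC142, RSPH9, ABRAXAS1, SLC5A3, MPV17L2 and the uncalled neighbours MITD1, NDUFB5 and SLC7A7 were named after their values were seen. Promoter windows are from RefSeq (GRCh38.p14). No promoter window was used for 9 members, and no protein sequence was used. Some results, among them 1 gene that this rule names, are not reported here.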

Additional observations from a re-analysis of the deposited data

How the results depend on the processing

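None of the 77 tested members turned its direction while called, in any of the 15 alternatives, and the count of members higher stayed within 1.5 times 20: it was 18 with RLE scaling (16.8% of all genes tested were higher), with no filter beyond 1 count (8.35%) and with a mean of at least 1 CPM (18%), 16 with DESeq2 (15.0%), 19 with limma-voom (17.2%), 20 without robust estimation (17.1%) and with a GC and length offset (18.5%), and 14 with library size alone (12.3%). The count of members lower, 2 and all in the large subunit, was 1 with no filter (6.72% of all genes), with DESeq2 (12.8%) and with limma-voom (14.8%), 3 with the GC and length offset (15.6%) and with library size alone (21.3%), and 2 in the remaining fits on all libraries. With 1 library left out, 14.0% to 15.8% of all genes were higher. Members higher then ranged from 14 (without PAI-1 replicate 2, 15.8% of all genes) to 21 (without PAI-1 replicate 1, 15.3%). Members lower ranged from 0 to 2. The large-subunit counts ranged from 10 to 15 higher and 0 to 2 lower, and small-subunit members higher from 4 to 6. Members lower were 0 without CAF replicate 2 (12.2% of all genes were lower), CAF replicate 3 (12.3%) or PAI-1 replicate 3 (12.3%). Without PAI-1 replicate 2 the count was 1 (14.4% of all genes). The median log2 fold change, 0.1226, was 0.0567 with library size alone and ranged from 0.0606 (without PAI-1 replicate 2) to 0.1445 (without CAF replicate 2). MRPL14, MRPL21, MRPL23, MRPL24, MRPL46, MRPL52 and MRPS26 were not called without PAI-1 replicate 2. Some members not called in the report, MRPL11, MRPL20, MRPL41, MRPL42, MRPL49, MRPS6, MRPS7 and MRPS18C, passed the threshold in at least 1 alternative. With the replicate number as a block, 22 members rose (18.1% of all genes) and 2 fell (15.8%). Deviations from the group means correlated at 0.00234, 0.0122 and 0.0063 over genes between libraries of the same number. PAI-1 replicate 1 correlated more with CAF replicate 3 (0.00467). Over all pairs of a CAF and a PAI-1 library the values ran from −0.0103 to 0.0122. Any deviation shared by libraries of the same number was therefore small. Whether they were set up as pairs is not stated in the labels. Depth limits MRPS24 and MRPL53, and the causes of these differences between settings were not tested.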

Other observations

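Factors known to act on nuclear genes of mitochondria were listed beside the members. Of 10 such regulators, 5 rose and 1 fell, where 17.2% of all genes tested rose and 15.0% fell. With library size alone 5 rose and 2 fell (12.3% and 21.3% of all genes). Without PAI-1 replicate 2 it was also 5 and 2 (15.8% and 14.4% of all genes). The coactivators PPRC1 and PPARGC1B rose, the first from 101 ± 3.94 to 167 ± 5.89 CPM (log2 fold change 0.72, edgeR adjusted p = 5.58e-12) and the second from 5.53 ± 1.16 to 9.85 ± 1.13 CPM (0.84, edgeR adjusted p = 0.000134; SD, n = 3 in both). MYC rose by 0.54 (adjusted p = 2.11e-07), the nuclear receptor ESRRA by 0.32 (adjusted p = 0.000437) and GABPB1, the partner of GABPA, by 0.46 (adjusted p = 1.28e-05). YY1 fell by 0.25 on the log2 scale (SE 0.058, adjusted p = 0.000921). GABPA (−0.15) and NRF1 (0.078) were not called. Over the 10, 6 log2 fold changes were positive and 4 negative, from −0.39 to 0.84. The lowest of these belonged to a gene that was not called. Any relation of these levels to the members or to their promoter letters was not tested.

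Pseudogenes and antisense genes with names like the members' held few counts. The largest were MRPL45P2 with 347 counts over the 6 libraries (log2 fold change 0.16, edgeR adjusted p = 0.587) and MRPS30-DT, which starts back to back with MRPS30, with 88 (0.34, edgeR adjusted p = 0.548). MRPS31P5 had 70 and MRPS31P4 had 63 counts, and neither was called.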
